A study of Mus musculus with 121 samples.

Results

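The prometaphase YY1 peaks are the 681 positions that were deposited as 1 list for cells held in prometaphase, and every row of that list was taken. They are 681 of 19683 YY1 peaks (3.46%) in 5 lists, each named for the cell-cycle stage at which its peaks emerged, and the other lists held 5713 peaks for ana/telophase, 10643 for early G1, 2403 for mid-G1 and 243 for late G1. No prometaphase peak overlapped a peak of another stage list, so the lists do not show whether a prometaphase peak was also called at a later stage. The assignment rule, the way the 3 libraries of a stage were combined, the read depth and the height of the peaks were not stated in the labels or file headers. With 1 list per condition no share below has a replicate error, and intervals and tests across peaks cover counting error only.

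YY1 is a zinc-finger transcription factor that binds promoters and enhancers, works with the INO80 remodelling complex, has Polycomb links and can bring distant elements together. When cells enter mitosis, chromosomes condense, transcription largely stops and most sequence-specific factors leave the chromatin. A minority of sites can stay occupied in mitosis, which is often called mitotic bookmarking, and the remaining sites are filled again as cells pass into G1.

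The stage lists came from G1E-ER4 MD-mCherry cells, a subline of a mouse erythroid progenitor line that was derived from embryonic stem cells and lacks its own GATA1. All stage samples, prometaphase included, had been treated with nocodazole, a microtubule poison, for 7 h, and were immunoprecipitated with the Active Motif antibody against YY1 (3 libraries per stage). The remaining lists came from asynchronous cells of the YY1-AID subline, in which YY1 carries a degron that leads to its breakdown once auxin is added. YY1 was mapped there after 4 h of auxin and in untreated cells with the Active Motif antibody (3 libraries each), and with a Bethyl antibody after auxin of unstated length and in untreated cells (2 libraries each). CTCF, RAD21, LDB1 and H3K27ac were mapped after 4 h of auxin and in untreated cells (2 libraries each). YY1 lists titled CTCF-AID, after 4 h of auxin and untreated (2 libraries each), carry a genotype label that reads YY1-AID, so the title and the label disagree. After auxin that pair held 20074 YY1 peaks, against 16355 in untreated cells, while the YY1-AID pair held 3713 after auxin, against 41163 in untreated cells. Chromatin loops and boundaries from Micro-C, a contact assay based on micrococcal nuclease, were deposited as lists merged over auxin-treated and untreated YY1-AID cells, for asynchronous cells (5 libraries per treatment) and mid-G1 cells (4 per treatment). The identity of the stage-sorted cells could not be checked on marker genes, since these lists hold positions only. Coordinates are mm9, per the submitters' processing notes, and genes are not named because no mm9 annotation was used here.

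All 681 prometaphase peaks were exactly 400 bp wide, as were 99.5% of the later peaks. Their median distance to the nearest prometaphase peak was 458 kb. The same distance within each later list was 42.9 kb for ana/telophase, 21.9 kb for early G1, 147 kb for mid-G1 and 3058 kb for late G1, so that it was longer the fewer peaks a list held. Only 18 of the 681 (2.64%) had another prometaphase peak within 10 kb. The nearest peak of any later list was a median of 13.8 kb away, and 299 prometaphase peaks (43.9%) had one within 10 kb. Chromosome 11 carried 70 of the prometaphase peaks, the most of any chromosome, or 0.575 per Mb of the length reached by the lists. It also carried the most ana/telophase peaks (508). Prometaphase peaks made up 4.71% of its stage peaks, against 3.46% over all chromosomes. Chromosome X carried 9, or 0.0541 per Mb. The share of prometaphase peaks among all stage peaks ranged from 2.18% on chromosome 3 to 4.94% on chromosome 8, and the share of peaks on X was 1.32% in the prometaphase list and 1.74% in the later lists together, a difference that did not pass (Fisher's exact test, two-sided, p = 0.547).

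Almost all prometaphase positions were YY1 peaks in unsynchronised cells of another subline. Of the 681 peaks, 670 (98.4%, Wilson 95% interval 97.1 to 99.1) overlapped an untreated YY1 peak of asynchronous YY1-AID cells by at least 1 bp. The share was 87.6% in the ana/telophase list, 63.9% in early G1, 70.2% in mid-G1 and 43.6% in late G1. With the Bethyl antibody 636 prometaphase peaks (93.4%) had a YY1 peak in untreated cells, against 74.6% of ana/telophase peaks. In the lists titled CTCF-AID, 666 (97.8%) had one after auxin and 667 (97.9%) in untreated cells. The prometaphase share was higher than the ana/telophase share in each of these 4 lists (odds ratios 4.80 to 8.64, adjusted exact p of at most 2.19e-23, Fisher's exact test across peaks, two-sided, Benjamini-Hochberg over 28 comparisons of shares). The reverse share was small, since prometaphase positions made up 1.63% of the 41163 untreated YY1 peaks and 6.94% of the 9164 untreated peaks of the Bethyl antibody.

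**Figure D1:**
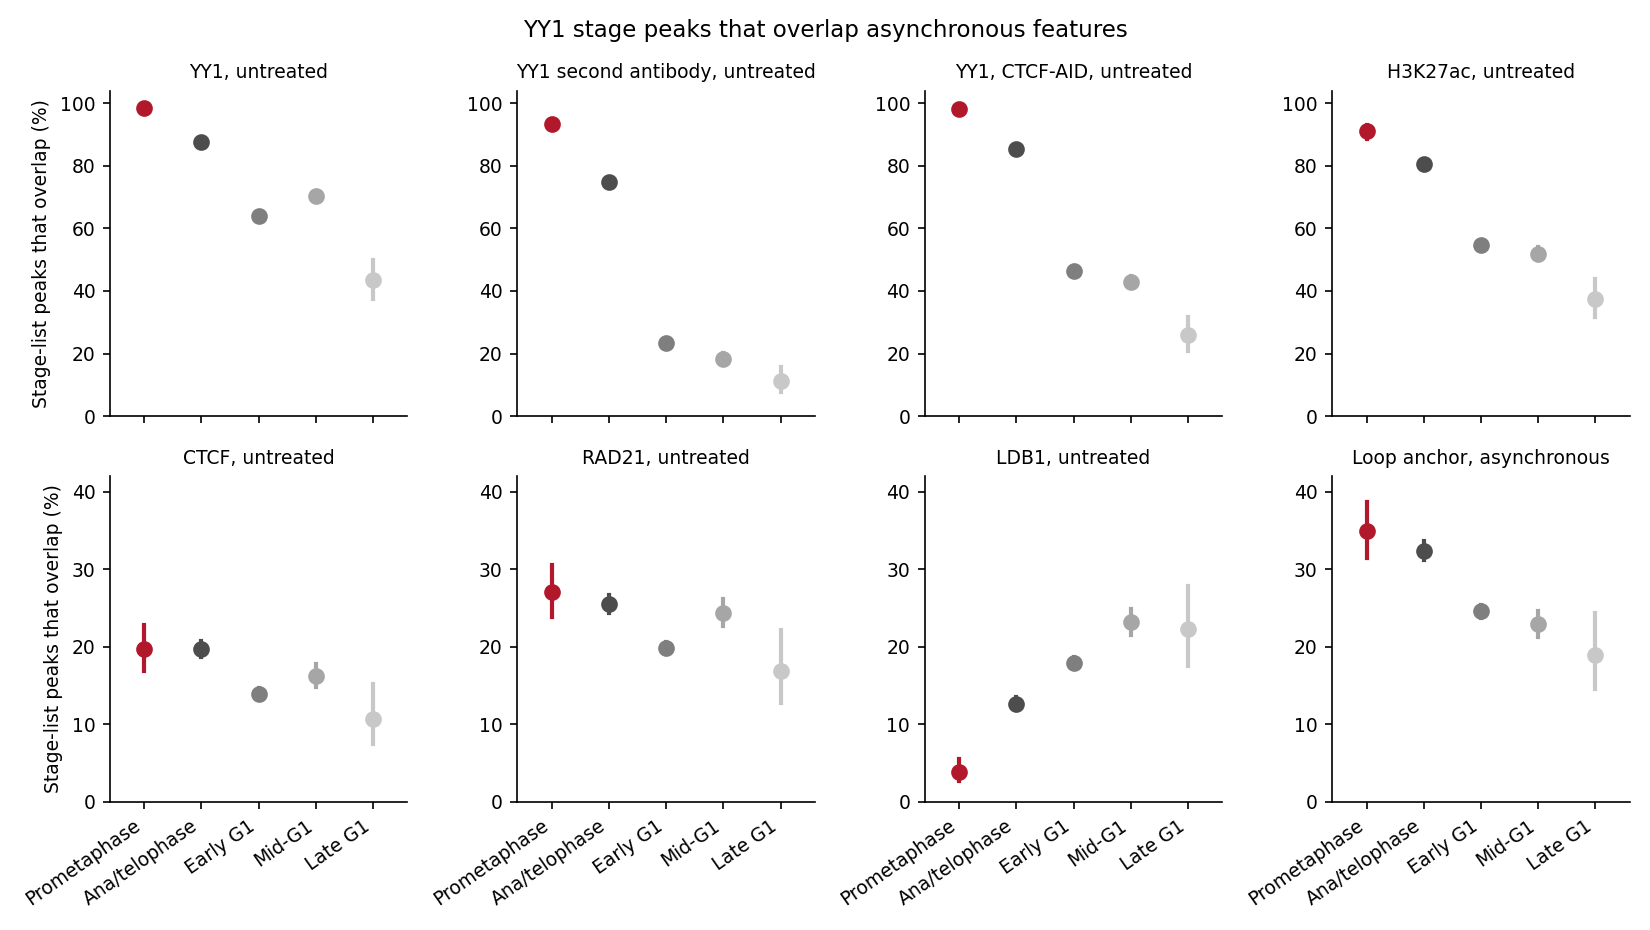
Share of the peaks of each YY1 stage list (in percent, y axis) that overlap an asynchronous feature, with stages in cell-cycle order on the x axis; points are shares, bars are Wilson 95% intervals that cover counting error only, and the lower row has a shorter axis. Prometaphase peaks reach 98.4% for YY1 and 91.0% for H3K27ac, and are lowest for LDB1 at 3.82%.

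The midpoints of the peaks also lay close together. Where a prometaphase peak overlapped an untreated YY1 peak, the midpoints were a median of 3 bp apart, and 570 of 670 (85.1%) lay within 10 bp. In the ana/telophase list the median was 8 bp, and 57.6% lay within 10 bp. The same held for the Bethyl antibody, with a median of 5 bp at prometaphase positions and 13 bp at ana/telophase positions.

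Nearly all prometaphase positions still had a called YY1 peak after YY1 degradation. After 4 h of auxin 666 of the 681 (97.8%, 96.4 to 98.7) overlapped a YY1 peak. The share was 34.7% for ana/telophase, 8.11% for early G1, 2.79% for mid-G1 and 7.00% for late G1. With the Bethyl antibody 576 prometaphase peaks (84.6%, 81.7 to 87.1) had an auxin peak, against 11.7% of ana/telophase, 1.21% of early G1, 1.21% of mid-G1 and 0.823% of late G1 peaks. The prometaphase list exceeded the ana/telophase list for both antibodies (odds ratio 83.6, adjusted exact p = 1.55e-251, for the Active Motif antibody; odds ratio 41.5, with a p too small for the computation to hold, for the Bethyl antibody).

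Counted from the untreated YY1 peaks themselves, 662 of the 670 at prometaphase positions (98.8%, 97.7 to 99.4) overlapped an auxin peak, against a background of 7.55% of all 41163 untreated peaks. At ana/telophase positions 1934 of 5001 (38.7%) did, at early G1 positions 424 of 6762 (6.27%), at mid-G1 positions 32 of 1686 (1.90%) and at late G1 positions 5 of 106 (4.72%). Among the 26966 untreated peaks in no stage list 54 (0.200%) did. Prometaphase positions thus differed from ana/telophase positions by an odds ratio of 131 (Fisher's exact test, p = 8.05e-232). With the Bethyl antibody 576 of 636 (90.6%) were kept at prometaphase positions, against 661 of 4266 (15.5%) at ana/telophase positions, with a background of 19.6% over all 9164 untreated peaks of that antibody. Among its 1330 untreated peaks in no stage list 423 (31.8%) were kept, a share above that at ana/telophase positions, whereas with the Active Motif antibody it was below. A peak counts as kept whenever one is called after auxin, whatever its height. Of the 1167 untreated peaks kept with both antibodies, 573 (49.1%) lay at prometaphase and 577 (49.4%) at ana/telophase positions, while 11 lay at early G1, 3 at mid-G1 and none at late G1 positions. Prometaphase positions made up 17.9% of the 3713 auxin peaks of the Active Motif antibody and 28.2% of the 2044 auxin peaks of the Bethyl antibody, in which 31.7% lay in no stage list.

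**Figure D2:**
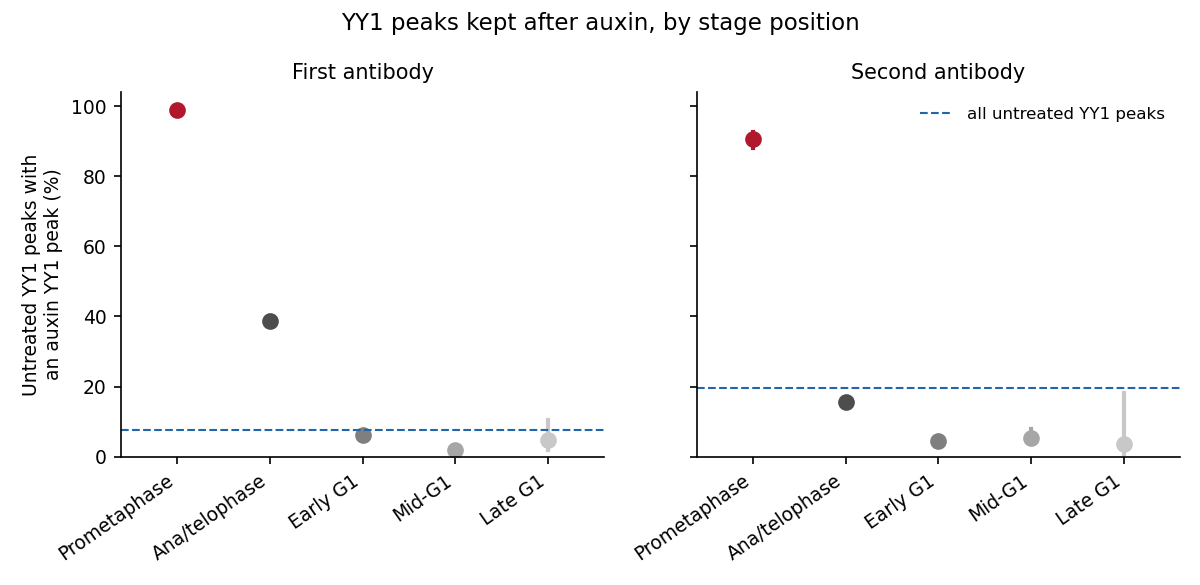
Share of untreated asynchronous YY1 peaks (in percent, y axis) that overlap a YY1 peak after auxin, grouped by the stage list they overlap (x axis), for the Active Motif antibody on the left and the Bethyl antibody on the right; bars are Wilson 95% intervals and the dashed line is the share over all untreated peaks. The prometaphase group stands at 98.8% and 90.6%, and ana/telophase at 38.7% and 15.5%.

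Across the 6 asynchronous YY1 lists, 573 prometaphase peaks (84.1%) were present in every list. Another 53 were missing only from the Bethyl auxin list, and 27 were missing from both Bethyl lists alone. Of the rest, 9 peaks on 8 chromosomes were present only in the auxin and untreated lists of the Active Motif antibody in YY1-AID cells. None of these 9 overlapped H3K27ac, CTCF, RAD21, LDB1, a loop anchor or a boundary, and the nearest later peak was 49.9 to 490 kb away. They were singled out after their values were seen.

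Only 3 prometaphase peaks were in none of the 6 lists, and they too were singled out after their values were seen. These were chr5:75969721-75970120, chr5:75971304-75971703 and chr17:23013243-23013642. The first pair lay 1583 bp apart, midpoint to midpoint, and the chromosome 17 peak lay 1391 bp from another prometaphase peak at chr17:23014634-23015033. Only 1 more pair of prometaphase peaks lay within 5 kb of each other, at chr8:87548961-87549360 and chr8:87550598-87550997, 1637 bp apart. The chromosome 17 position had no H3K27ac, CTCF, RAD21 or LDB1 peak and no loop anchor.

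Most prometaphase peaks lay in chromatin marked by H3K27ac, an acetylation of histone H3 found at active promoters and enhancers. In untreated asynchronous cells 620 of the 681 (91.0%, 88.7 to 93.0) overlapped an H3K27ac peak, against 80.7% of ana/telophase peaks (odds ratio 2.43, adjusted exact p = 3.16e-12) and 61.9% of all later peaks (odds ratio 6.26, adjusted exact p = 4.73e-65). Down the later stages the share was 54.6% in early G1, 51.9% in mid-G1 and 37.4% in late G1. The 620 peaks lay in 619 H3K27ac regions, and 1 region, on chromosome 8, held 2 of them. These regions had a median width of 2765 bp, against 2499 bp for regions with an ana/telophase but no prometaphase peak, 953 bp for regions with no stage peak and 1440 bp for all 21962. Regions of 5 kb or more made up 15.0% of those with a prometaphase peak and 16.4% of those with an ana/telophase but no prometaphase peak. In 438 of the 619 regions (70.8%) no later YY1 peak was present, and 181 (29.2%) also held a later peak. Inside its region a prometaphase peak lay a median of 964 bp from the nearer edge, and an ana/telophase peak 870 bp.

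The 61 prometaphase peaks without H3K27ac had lower shares than the other 620 in each of the 6 asynchronous YY1 lists. Of the 61, 51 had a YY1 peak after auxin (83.6%, against 99.2% of those with H3K27ac) and 54 had one in untreated cells (88.5%, against 99.4%). The Bethyl antibody separated them further, with 8 of 61 present after auxin (13.1%, against 91.6% of those with H3K27ac) and 19 of 61 in untreated cells (31.1%, against 99.5%). The difference after auxin passed (odds ratio 72.4 for peaks with H3K27ac, adjusted exact p = 4.00e-39, Fisher's exact test, adjusted over 36 pairs of features within the prometaphase list). The other YY1 lists were not tested in this way. RAD21 (28.7% with H3K27ac, against 9.84%, adjusted exact p = 0.00331) and both lists of loop anchors also passed. CTCF (20.6%, against 9.84%, adjusted exact p = 0.0775), LDB1 and both lists of boundaries did not. The 61 were also farther from later peaks, with a median of 112 kb to the nearest, against 11.3 kb for those with H3K27ac.

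**Figure D3:**
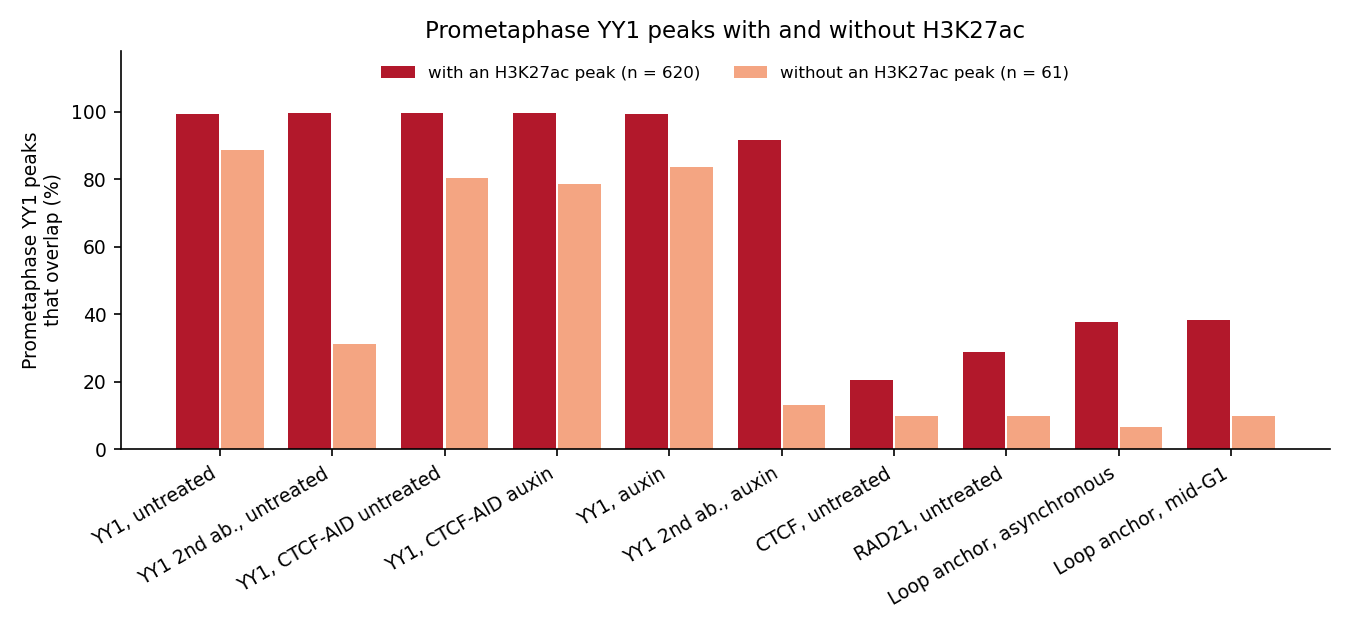
Share of prometaphase YY1 peaks (in percent, y axis) that overlap each asynchronous list (x axis), for the 620 peaks with an untreated H3K27ac peak (dark) and the 61 without (light). The pair of bars for the Bethyl antibody after auxin stands at 91.6% and 13.1%, and the pair for asynchronous loop anchors at 37.7% and 6.56%.

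CTCF, the insulator protein, and RAD21, a subunit of the cohesin ring, were present at a minority of prometaphase positions. CTCF overlapped 134 of the 681 (19.7%) in untreated cells, and 19.7% of ana/telophase peaks (odds ratio 0.998, adjusted exact p = 1). RAD21 overlapped 184 (27%), against 25.5% of ana/telophase peaks (odds ratio 1.08, adjusted exact p = 0.423). Against all later peaks together both shares were higher (CTCF 15.9% of later peaks, adjusted exact p = 0.0143; RAD21 22.1%, adjusted exact p = 0.00394), but these differences did not pass, and in part turned round, when only peaks with H3K27ac were compared or when an overlap of 50% of the peak was required. Within the prometaphase list, RAD21 was present at 81 of the 134 peaks with CTCF (60.4%) and at 103 of the 547 without (18.8%, adjusted exact p = 2.61e-19). The most common combination was H3K27ac alone (379 peaks, 55.7%), followed by H3K27ac with RAD21 (101), H3K27ac with both CTCF and RAD21 (69), none of the 4 factors (55) and H3K27ac with CTCF (48).

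LDB1, a cofactor that joins the erythroid GATA1 and TAL1 complex at enhancers, was rare at prometaphase positions. It overlapped 26 of the 681 (3.82%, 2.62 to 5.54), against 721 of 5713 ana/telophase peaks (12.6%, odds ratio 0.275, adjusted exact p = 7.77e-14) and 17.0% of all later peaks (odds ratio 0.193, adjusted exact p = 1.09e-25). The share was 17.9% in early G1, 23.1% in mid-G1 and 22.2% in late G1. Of the 26, 14 also had CTCF, a higher share than among peaks without CTCF (10.4% of the 134 with CTCF against 2.19% of the 547 without had LDB1, adjusted exact p = 0.000352).

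CTCF, RAD21 and LDB1 midpoints were not centred on the YY1 midpoints to the same degree as YY1 itself. The median offset at prometaphase positions was 3 bp for YY1 after auxin, 152 bp for CTCF after auxin and 150 bp for RAD21 after auxin. In untreated cells it was 167 bp for CTCF, 180 bp for RAD21 and 121 bp for LDB1. Within 50 bp lay 96.5% of the YY1 auxin peaks and 18.7% of the untreated CTCF peaks. Most overlaps with CTCF, RAD21 and LDB1 were therefore offset from the YY1 midpoint. This was not particular to the prometaphase list. At ana/telophase positions the untreated medians were 138 bp for CTCF, 135 bp for RAD21 and 108 bp for LDB1. Offsets were taken among overlapping peaks only, so the width of the peaks limits them.

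**Figure D4:**
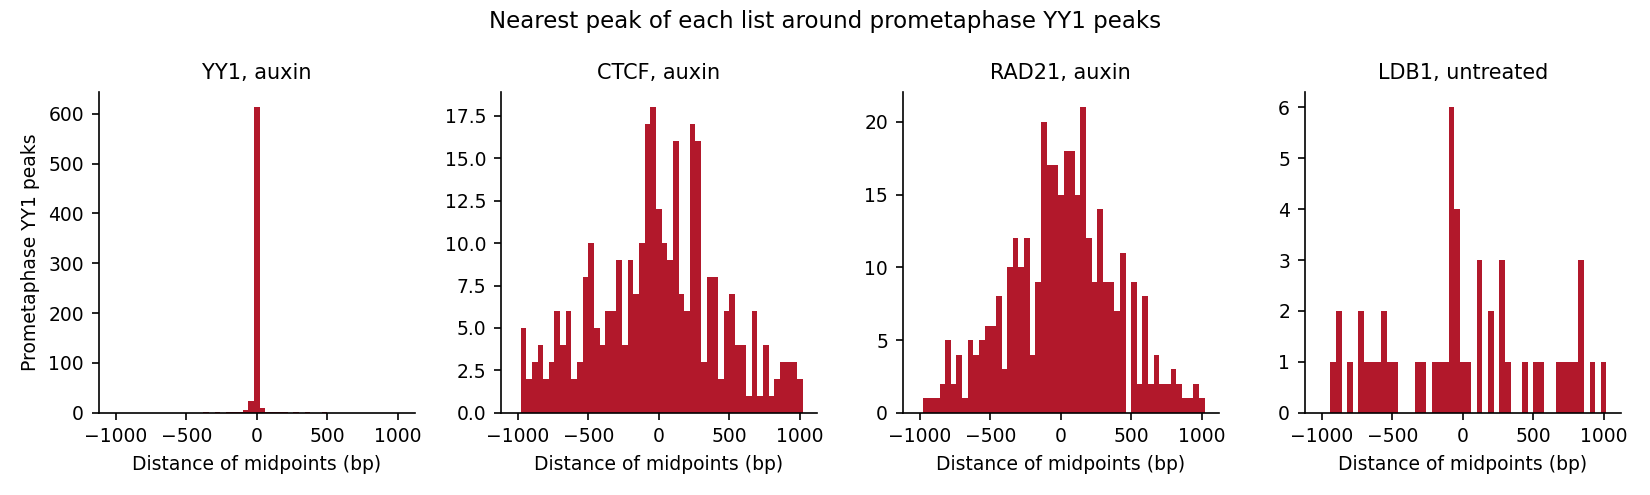
Signed distance in bp (x axis, bins of equal width) from midpoints of prometaphase YY1 peaks to the nearest midpoint in 4 asynchronous lists (YY1, CTCF and RAD21 after auxin, LDB1 in untreated cells). The number of prometaphase peaks is on the y axis, whose scale differs between panels. Peaks whose nearest midpoint lay beyond the x axis are not drawn, so a panel can hold only part of the list. YY1 after auxin sits at 0 bp with a median offset of 3 bp among overlapping peaks. Within the range drawn, CTCF, RAD21 and LDB1 spread more widely.

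After auxin H3K27ac was called at the same prometaphase positions as before. It overlapped 622 peaks after auxin and 620 in untreated cells, and all 620 were kept (100%, 99.4 to 100). The kept share was 98.5% at ana/telophase positions (adjusted exact p = 0.000598, Fisher's exact test, adjusted over 16 tests of kept and gained partners). Counted as H3K27ac regions, 619 of 619 were kept at prometaphase positions, against a background of 91.8% of all untreated regions. At ana/telophase positions 4035 of 4067 regions (99.2%) were kept (Fisher's exact test, p = 0.0169), and at late G1 positions 90 of 90. The mark was gained at 2 of the 61 positions without it (3.28%), against 6.07% at ana/telophase and 4.53% at all later positions, differences that did not pass.

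CTCF peaks appeared at some prometaphase positions after auxin. The whole CTCF list was also larger after auxin, with 64548 peaks against 59085 in untreated cells. CTCF overlapped 196 of the 681 after auxin and 134 in untreated cells, 68 positions gained a peak and 6 lost one. The 68 were 12.4% (9.93 to 15.5) of the 547 positions without CTCF before auxin. The same share was 6.08% at ana/telophase, 2.75% at early G1, 2.19% at mid-G1 and 0.922% at late G1 positions, and prometaphase exceeded ana/telophase (odds ratio 2.19, adjusted exact p = 9.65e-07) and all later positions (3.61%, odds ratio 3.79, adjusted exact p = 2.44e-16). Counted from the auxin CTCF peaks at prometaphase positions, 68 of 196 (34.7%) had no untreated peak, against 21.3% at ana/telophase positions (Fisher's exact test, p = 5.87e-05) and a background of 15.0% of all 64548 auxin CTCF peaks. All 68 had H3K27ac in untreated cells, against 91.0% of all prometaphase peaks and 95.3% of the 128 with CTCF before and after auxin. A YY1 peak of the Bethyl antibody was present after auxin at 63 of the 68 (92.6%), against 84.6% of all prometaphase peaks and 90.6% of the 128. These differences were not tested. The new CTCF peaks lay a median of 137 bp from the YY1 midpoint. Of the CTCF peaks already present, 128 of 134 (95.5%) were kept, against a background of 92.8%.

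RAD21 overlapped 257 prometaphase peaks after auxin and 184 in untreated cells. The whole RAD21 list was also larger after auxin, with 50028 peaks against 39745 in untreated cells. RAD21 was gained at 91 of 497 positions without it (18.3%, 15.2 to 21.9) and lost at 18. The gain was 14.8% at ana/telophase positions, a difference that did not pass (odds ratio 1.29, adjusted exact p = 0.0949), and 10.4% at all later positions (odds ratio 1.93, adjusted exact p = 7.07e-07). Counted from the auxin RAD21 peaks, 94 of 258 at prometaphase positions (36.4%) had no untreated peak, against 32.2% at ana/telophase positions (Fisher's exact test, p = 0.181), 41.0% at late G1 positions (p = 0.557, exact) and a background of 26.4% of all 50028 auxin RAD21 peaks. The difference from all later positions did not pass among peaks with an untreated peak of the Bethyl antibody (19.8%, against 18.6%, exact p = 0.530). All 91 positions had H3K27ac in untreated cells, against 91.0% of all prometaphase peaks. CTCF was present after auxin at 33 of the 91 (36.3%), against 28.8% of all prometaphase peaks and 29.6% of the ana/telophase positions that gained RAD21, differences that were not tested. Of the untreated RAD21 peaks at prometaphase positions 164 of 184 (89.1%) were kept, against a background of 92.6%.

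LDB1 was mostly not kept at its few prometaphase positions. It overlapped 19 peaks after auxin and 26 in untreated cells, and 11 of the 26 (42.3%, 25.5 to 61.1) were kept, against a background of 87.1% of all untreated LDB1 peaks. The kept share was 91.3% at ana/telophase positions (658 of 721, odds ratio 0.0702, adjusted exact p = 8.50e-09), 92.5% at early G1, 93.3% at mid-G1 and 96.3% at late G1 positions. Of the 15 positions that lost LDB1, 14 had H3K27ac and 14 had a YY1 peak of the Bethyl antibody after auxin, close to the 9 and 10 of the 11 that kept LDB1 and to the 91.0% and 84.6% of all prometaphase peaks. The result rests on 26 positions. LDB1 was gained at 8 of the 655 positions without it (1.22%), against 1.06% at ana/telophase and 1.17% at all later positions. Counted from the auxin LDB1 peaks, 8 of 19 at prometaphase positions (42.1%) had no untreated peak. At ana/telophase positions that share was 7.45% (Fisher's exact test, p = 5.50e-05). The difference between the 15 losses and the 8 gains did not pass (exact binomial test, p = 0.210).

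**Figure D5:**
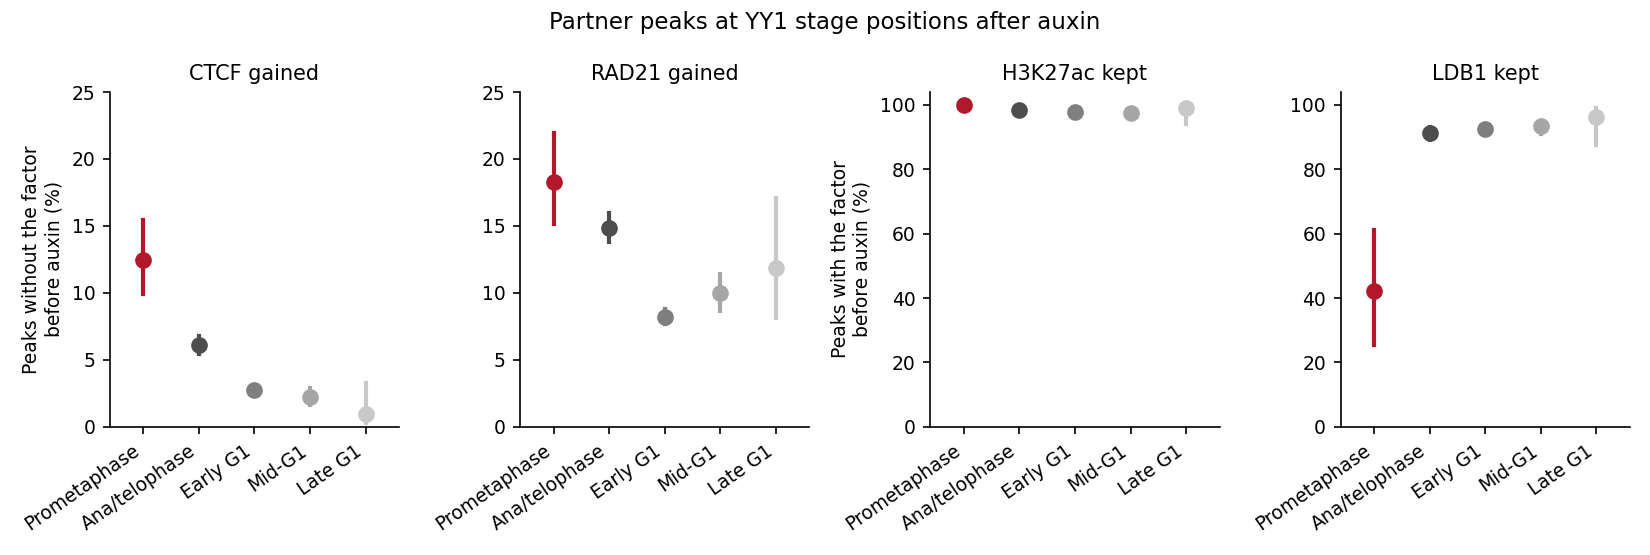
Share of YY1 stage peaks (in percent, y axis) that gained CTCF or RAD21 after auxin, among those without it before, and that kept H3K27ac or LDB1, among those with it before, by stage (x axis); bars are Wilson 95% intervals. Prometaphase peaks gained CTCF at 12.4%, above the 6.08% of ana/telophase, and kept LDB1 at 42.3%, below the 91.3% of ana/telophase.

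Similar shares of prometaphase and ana/telophase peaks lay in loop anchors, the ends of contacts that Micro-C called as loops. An asynchronous anchor of 5 or 10 kb overlapped 238 of the 681 (34.9%), against 32.4% of ana/telophase peaks (difference 2.58 percentage points, adjusted exact p = 0.219). A mid-G1 anchor overlapped 243 (35.7%), against 34.7% (difference 1.01 points, adjusted exact p = 0.657). Against all later peaks the shares were higher (26.6% asynchronous, adjusted exact p = 4.84e-06; 29.1% mid-G1, adjusted exact p = 0.000418), but not when only peaks with H3K27ac were compared (adjusted exact p = 0.0907 and 0.474). In both lists of loops 163 peaks lay in an anchor, 75 only in an asynchronous anchor, 80 only in a mid-G1 anchor and 363 in neither. With H3K27ac 37.7% lay in an asynchronous anchor and without it 6.56% (4 of 61, adjusted exact p = 1.05e-06). Boundaries of contact domains overlapped 46 peaks (6.75%) in asynchronous cells, against 7.12% of ana/telophase peaks (adjusted exact p = 0.843), and 54 peaks (7.93%) in mid-G1 cells, against 6.81% (adjusted exact p = 0.309). Against all later peaks the mid-G1 share was higher (5.37% of later peaks, odds ratio 1.52, adjusted exact p = 0.0082), but not when only peaks with H3K27ac were compared (8.55%, against 6.32%, adjusted exact p = 0.0609), and the asynchronous share did not pass (5.26%, adjusted exact p = 0.124).

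Loops with a prometaphase peak in an anchor numbered 338 of 12738 in asynchronous cells (2.65%) and 331 of 14155 in mid-G1 cells (2.34%). Their median span was 165 kb in asynchronous cells, against 150 kb for loops with an ana/telophase but no prometaphase peak and 175 kb for all loops. In mid-G1 cells it was 150 kb, against 160 kb and 180 kb. Prometaphase peaks sat in both anchors of 13 asynchronous and 10 mid-G1 loops. Of the asynchronous loops with a prometaphase peak 39.1% were also called in mid-G1 cells, against 40.6% of those with an ana/telophase but no prometaphase peak (Fisher's exact test, p = 0.632). Among asynchronous loops with neither peak the share was 45.3% (Fisher's exact test, unadjusted p = 0.0228). Of the mid-G1 loops with a prometaphase peak 40.8% were also called in asynchronous cells. That share was 35.5% with an ana/telophase but no prometaphase peak (Fisher's exact test, unadjusted p = 0.0666) and 40.8% with neither.

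The anchors opposite prometaphase peaks were compared only with those opposite ana/telophase peaks, and no share over all anchors is given here. Opposite the 351 asynchronous loop ends with a prometaphase peak, 78.6% of anchors held an H3K27ac peak, against 71.6% opposite 2426 ends with an ana/telophase peak (adjusted exact p = 0.0143, Fisher's exact test, 12 tests). An untreated YY1 peak was held by 80.9%, against 74.6% (adjusted exact p = 0.0166), and a later-stage YY1 peak by 58.1%, against 49.2% (adjusted exact p = 0.0143). RAD21 was held by 67.5%, against 75%, and so was less frequent opposite prometaphase peaks (odds ratio 0.692, adjusted exact p = 0.0143). CTCF was held by 70.9%, against 74.0% (adjusted exact p = 0.266), and LDB1 by 30.8%, against 29.0% (adjusted exact p = 0.49). In mid-G1 loops the same 4 features passed in the same directions, but none of them did with anchors of 5 kb. A loop can count as an end in both groups, and its ends are not independent.

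Most prometaphase peaks took part in few loops. In asynchronous cells 443 had none, 158 had 1 and 80 had 2 or more, with a mean of 1.50 among peaks with a loop, against 1.52 for ana/telophase peaks. The pair chr5:75969721-75970120 and chr5:75971304-75971703 had the most, sharing the same 7 asynchronous loops, which spanned 115 to 370 kb, and the same 4 mid-G1 loops. RAD21 lay in all 7 opposite anchors, untreated YY1 in 5, CTCF in 4 and H3K27ac in 3. This is the pair that had no YY1 peak in any of the 6 asynchronous lists. The peak at 75971304 overlapped a 9222 bp H3K27ac region, CTCF and RAD21, while its neighbour overlapped none of the factors, and both overlapped an asynchronous boundary.

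The other peaks with many loops were YY1 peaks in 5 or 6 asynchronous lists. The peak chr2:173485091-173485490 had 6 asynchronous loops of 75 to 1315 kb, and all 6 opposite anchors held H3K27ac and a later-stage YY1 peak. It had no CTCF or RAD21 peak in untreated cells and gained RAD21 after auxin. The peak chr2:170336750-170337149, with H3K27ac, CTCF and RAD21, had 4 asynchronous loops of 280 to 1555 kb and the most mid-G1 loops, 6 of 230 to 1840 kb. The peak chr5:115798751-115799150 had 4 asynchronous loops of 50 to 180 kb and 1 mid-G1 loop. In mid-G1, chr11:104987628-104988027 had 5 loops of 55 to 830 kb and chr14:79790367-79790766 had 5 of 65 to 195 kb, while chr4:153330933-153331332 had 4 mid-G1 loops and 1 asynchronous loop.

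The 3 prometaphase peaks in the largest H3K27ac regions had at most 1 asynchronous loop each. So did most prometaphase peaks, since 443 of the 681 had none and 158 had 1. Only anchors that overlapped the 400 bp YY1 peak were counted, and anchors elsewhere in these regions were not. The peak chr7:80682827-80683226 lay in a region of 28783 bp and in no loop anchor. The peak chr5:20457401-20457800 lay in a region of 27062 bp and had 1 asynchronous loop of 105 kb. The peak chr9:110558867-110559266 lay in a region of 17903 bp and had no loop. All 3 were YY1 peaks in all 6 asynchronous lists, after auxin included. Since all prometaphase peaks have the same width, the widest were taken in genome order. Of these, chr1:10027815-10028214 and chr1:34496457-34496856 had H3K27ac and were in all 6 YY1 lists, and chr1:11445886-11446285 had no H3K27ac, was missing from both Bethyl lists and lay 154 kb from the nearest later peak.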

How the data were processed

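Peak, loop and boundary lists were used as the authors deposited them, as positions without scores. Per the submitters' processing notes the ChIP-seq and Micro-C samples were processed on mm9 with Bowtie2, MACS2 2.2.7 and deepTools 3.5.1. These notes do not name the peak threshold or the callers of loops and boundaries. Depth is unknown. The prometaphase list and the comparisons were chosen with earlier results of these data known.

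Positions were intersected in Python 3.11.15 with NumPy 2.4.6, with at least 1 bp as an overlap. The overlap code was tested on simulated intervals and checked against bedtools 2.31.1. Shares have Wilson 95% intervals and were compared by two-sided Fisher's exact tests (SciPy 1.17.1) across peaks, with a threshold of 0.05. The p values called adjusted were adjusted by Benjamini-Hochberg within their family, and all others are unadjusted. Named peaks were the 3 widest, the 5 with the most loops in each cell population and the 3 in the largest H3K27ac regions, with ties in genome order. Added after seeing the data were the tests of kept and gained partners, of opposite anchors and of pairs of features, and the alternatives with peaks of the Bethyl antibody only, with exactly 400 bp and on these added tests. RNA count tables, domains and signal tracks were not used here.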

Additional observations from a re-analysis of the deposited data

How the results depend on the processing

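Results on YY1, H3K27ac and LDB1 shares, YY1 retention, CTCF gain and the kept share of LDB1 kept their direction and side of the threshold under every alternative run on them. Of 224 recomputed values 193 did so, 17 no longer passed, 1 newly passed and 13 changed sign. Alternatives on kept and gained partners and on YY1 retention were judged on unadjusted p values of Fisher's exact test. Peaks of exactly 400 bp gave 27 of the 193 and 1 of the 13. That setting kept all 681 prometaphase peaks and 99.5% of later peaks, so it could change little. Differences below are prometaphase minus the other list, in percentage points, and the cause was not tested. For CTCF against all later stages, the difference was -0.71 with an overlap of 50% of the peak, 2.40 at 200 bp, 1.88 with H3K27ac only, 1.10 with untreated YY1 only and -0.866 with Bethyl peaks only, and against ana/telophase 0.0146 with peaks of exactly 400 bp. For RAD21 it was -0.925, 2.13, -0.681, 0.881 and -2.45 in the same order against all later stages, and -2.34, -0.395, -0.358, -0.189 and -1.28 against ana/telophase. With H3K27ac only and with Bethyl peaks only, against all later stages, it was 3.80 and 3.73 for asynchronous anchors, 1.90 and 1.64 for mid-G1 anchors, 2.23 and 2.01 for mid-G1 boundaries and 3.59 and 1.21 for RAD21 gain, and with Bethyl peaks only -0.204 for asynchronous boundaries. With anchors of 5 kb it was -0.638 for mid-G1 anchors against ana/telophase, -6.19 for CTCF opposite asynchronous ends, and, opposite mid-G1 ends, 4.57 for H3K27ac, 2.17 for YY1, -5.87 for RAD21 and 4.57 for later-stage peaks. No paired analysis was possible because each condition is 1 list without values per replicate, so no library could be left out either. Motifs, nascent RNA and steady-state RNA at these positions, with their alternatives (DESeq2, no count filter, replicate block, libraries left out, a start distance of 250 bp, spike-in scaling and a 200 bp motif window), were not run, since no mm9 genome or annotation was used here.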
